A study of Homo sapiens with 12 samples.

Results

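The 9 genes described here are the apoptosis ligand TNFSF10, the death receptors FAS, TNFRSF10A and TNFRSF10B, the caspases CASP8, CASP10, CASP1 and CASP4, and GSDMD. They were taken by name from a count table of 60666 genes, and all 9 were found and passed the low-count filter of every comparison. The study asked how the transcription factor FOXP3 relates to PD-L1 in bladder cancer cells. Its RNA-seq libraries came from HT1376, a human bladder cancer cell line, in 2 forms. HT1376 CT, called wild type in the sample labels, is a CRISPR control made with a guide RNA against luciferase. HT1376 FOXP3 KO was made with Cas9 and guide RNA against the first coding exon of FOXP3. Both are single-cell clones, so the 1 knockout clone is compared with 1 control clone, and the knockout cannot be told apart from other differences between the clones. Each line was left untreated or kept for 48 hours in 100 ng/mL of interferon gamma (IFNγ). This made 4 groups, and a group has 3 libraries, numbered 11, 12 and 13. The sources used here do not state whether the 3 libraries came from separate cultures, so the p-values measure the spread between these libraries, which may be technical.

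TNFSF10 encodes TRAIL, a ligand that binds TNFRSF10A (DR4) and TNFRSF10B (DR5), while FAS binds FAS ligand. Engaged receptors recruit the adaptor FADD and the initiator caspases CASP8 and CASP10, which start the caspase cascade of apoptosis. The inflammatory caspases CASP1, activated on inflammasomes, and CASP4, activated by cytosolic bacterial lipopolysaccharide, cleave gasdermin D (GSDMD), whose released fragment forms pores in the plasma membrane during pyroptosis. IFNγ acts through the receptor kinases JAK1 and JAK2, and several genes of both death pathways are known targets of interferons.

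The libraries held 4490684 to 39270042 counts on genes (median 15551202). FOXP3 itself had at most 3 counts in any library and 0 in 8 of 12, so its level could not check the knockout label. IRF1, a transcription factor gene known to be induced by IFNγ, rose 14.2-fold with the treatment in HT1376 CT and 7.501-fold in HT1376 FOXP3 KO. All 6 epithelial markers were expressed in each group, whereas only 5 of 10 urothelial markers exceeded a mean of 1 CPM (counts scaled to library size), and UPK3A was at 0 in all 12 libraries. Summed leukocyte markers came to 4.68 to 8.66 CPM across HT1376 CT libraries and 77.3 to 233 CPM across HT1376 FOXP3 KO libraries. In the knockout line that sum was almost all CSF1R, with PTPRC at most 0.468 CPM there, and CD2, MS4A1 and NKG7 at 0 in all libraries. The fibroblast and endothelial markers summed to 25.4 to 66.8 CPM in HT1376 CT and 450 to 733 CPM in HT1376 FOXP3 KO, and 6 of their 9 genes exceeded 1 CPM in the knockout line. COL1A2, DCN and LUM carried most of that sum, whereas COL1A1 was at 15.9 to 31.8 CPM in HT1376 CT and 5.66 to 8.52 CPM in HT1376 FOXP3 KO. Summed epithelial markers came to 3821 to 4628 CPM in HT1376 CT and 3842 to 4959 CPM in HT1376 FOXP3 KO. Among them, EPCAM was at 37.9 to 97.3 CPM in HT1376 CT and 14.7 to 23.1 CPM in HT1376 FOXP3 KO. CDH1 was also lower, at 354 to 399 CPM in HT1376 CT and 208 to 284 CPM in HT1376 FOXP3 KO. KRT7 went the other way, at 372 to 783 CPM in HT1376 CT and 818 to 1481 CPM in HT1376 FOXP3 KO. KRT8, KRT18 and KRT19 overlapped between the lines. The part of these marker differences in the values below was not tested. In bulk RNA, fewer cells expressing a gene and less RNA per cell cannot be told apart.

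Libraries numbered 12 stood apart from those numbered 11 and 13, mainly in genes that were lowest. They also had the fewest counts in each of the 4 groups. Their totals were 12705778 in HT1376 CT and 4490684 with IFNγ, and 10476942 in HT1376 FOXP3 KO and 9054262 with IFNγ. The number 12 and low depth therefore cannot be told apart. Of 15677 genes with a mean of at least 1 CPM, 1077 were highest and 2218 lowest in number 12 in all 4 groups, against 398 and 605 for number 11, and 1128 and 296 for number 13. Libraries that share a number and a line also deviated together from their group means, so fits with the replicate number as a block, with edgeR's bias-adjusted deviance, are given beside the IFNγ effects where they change a call. Values without the libraries numbered 12, an alternative added after the data were seen, are given where the result turns on them.

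Promoter windows from RefSeq (GRCh38.p14) were listed for FAS, TNFSF10, CASP4 and CASP8. Each holds 250 bases before to 50 bases after a transcription start. They were searched on both strands for the gamma-activated site (GAS, TTCNNNGAA), for the core of the interferon-stimulated response element (ISRE, 2 copies of GAAA parted by 2 bases of any kind), and for the forkhead motif, which is a purine and a pyrimidine followed by AAACA. Of 35116 promoters in the table, 7.66% held the first, 3.57% the second and 15.1% the third. The matches are printed because they place the interferon motifs next to the starts of TNFSF10 and CASP8. Capitals mark the matched letters, which may read on the opposite strand of the motif as spelled.
TNFSF10, ISRE core, minus strand, chr3:172523598-172523627: gaggagcttcTTTCAGTTTCcctcctttcc
CASP8, GAS, plus strand, chr2:201233253-201233281: aaaattatttTTCCAAGAAgaaaataaac
CASP8, ISRE core, plus strand, chr2:201233450-201233479: gagtttttggTTTCTGTTTCaccttgtgtc
CASP8, forkhead, plus strand, chr2:201260458-201260486: ttcccctctagTGTTTGTgactcaggagt
The TNFSF10 match began at -187 from the start. Of the 3 CASP8 windows, 1 held the GAS at -200 and the ISRE core at -3, and another, belonging to a different start, held the forkhead letters at -67. The 3 FAS windows and the CASP4 window held none of these letters. A match is a description of the reference sequence only, and the absence of a match says nothing about binding.

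TNFSF10 (ENSG00000121858; chromosome 3, 172505508 to 172523475, minus strand, GRCh38) was the 1 gene of the 9 with more RNA in the knockout line. In HT1376 CT it stood at 3.39, 20.1 and 2.86 normalized CPM in replicates 11, 12 and 13, and with IFNγ at 48.6, 130.4 and 43.9 CPM. The knockout line had 118, 349 and 78.1 CPM, and with IFNγ at 242, 596 and 179.7 CPM. Replicate 12 was the highest library in each of the 4 groups, at 6.43, 2.82, 3.56 and 2.83 times the mean of the other two libraries, yet every knockout library lay above every control library at the same treatment. Untreated, TNFSF10 was 22.3-fold higher in the knockout line (log2 fold change 4.48 ± 0.78 SE, n = 3 per group, adjusted p = 0.00123, edgeR's quasi-likelihood test with Benjamini-Hochberg adjustment). Under IFNγ the difference was 4.79-fold (log2 2.26, adjusted p = 0.00552). The size of both depended on the libraries numbered 12. Untreated, the log2 difference was 5.93 without that of HT1376 CT and 3.65 without that of HT1376 FOXP3 KO, and under IFNγ it was 2.94 and 1.57, with every call kept.

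The response of TNFSF10 to IFNγ was 9.01-fold in HT1376 CT (log2 3.17 ± 0.68 SE, adjusted p = 0.0182, edgeR). It was log2 4.59 without the untreated replicate 12, log2 2.50 without the treated replicate 12, where the call was lost (adjusted p = 0.0537), and log2 3.92 without both (adjusted p = 2.29e-06). The fitted change in the knockout line was 1.89-fold (log2 0.92, 95% interval -0.40 to 2.24, adjusted p = 0.999), and the 2 knockout groups overlapped. Between libraries of the same number, however, the ratio of treated to untreated was 2.05, 1.71 and 2.30 in the knockout line, and 14.3, 6.49 and 15.4 in HT1376 CT. With the replicate block the knockout response passed the threshold (log2 1.01, adjusted p = 1.52e-08), as it did without the libraries numbered 12 (log2 1.12, adjusted p = 0.00996).

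FAS (ENSG00000026103; chromosome 10, 88953813 to 89029605, plus strand), the receptor of FAS ligand, rose with IFNγ in both lines. HT1376 CT had 7.26, 9.13 and 7.17 CPM untreated and 38.4, 41.8 and 35.8 CPM with IFNγ, a 5.02-fold increase (log2 2.33 ± 0.16 SE, adjusted p = 3.52e-06). HT1376 FOXP3 KO had 4.63, 6.24 and 5.01 CPM untreated and 10.8, 15.3 and 15.2 CPM with IFNγ, a 2.64-fold increase (log2 1.40 ± 0.22 SE, adjusted p = 0.0147). The treated and untreated libraries were apart in both lines, meaning that their ranges did not overlap, and under IFNγ every control library exceeded every knockout library. That difference under IFNγ was 2.73-fold (log2 -1.45 ± 0.18 SE, adjusted p = 0.000110). Untreated, the 2 lines did not overlap, but the lower knockout level did not pass the threshold (log2 -0.56, 95% interval -1.06 to -0.05, adjusted p = 0.0857). In the fit of all 12 libraries that difference passed (adjusted p = 0.0357). The ligand gene FASLG had at most 6 counts in any library and was not tested.

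TNFRSF10A (ENSG00000104689; chromosome 8, 23190452 to 23225102, minus strand), the TRAIL receptor DR4, was lower in the knockout line at both treatments. HT1376 CT held 47.1, 37.4 and 47.7 CPM untreated and 63.1, 48.9 and 72.7 CPM with IFNγ. HT1376 FOXP3 KO held 9.81, 6.51 and 9.85 CPM untreated and 10.7, 5.23 and 10.01 CPM with IFNγ. Every control library was well above every knockout library, and replicate 12 was lowest in each of the 4 groups. The knockout line was 4.95-fold lower untreated (log2 -2.31 ± 0.18 SE, adjusted p = 4.41e-06) and 6.82-fold lower under IFNγ (log2 -2.77 ± 0.25 SE, adjusted p = 1.12e-05). IFNγ left the control groups apart but short of the threshold (log2 0.51, 95% interval 0.17 to 0.86, adjusted p = 0.0923), and in the knockout line the estimate was 0.01 with an interval from -0.61 to 0.63. The control response passed with the replicate block (adjusted p = 0.00149), with DESeq2 (0.0408), without the low-count filter (0.0129), without HT1376 CT with IFNγ replicate 12 (0.0243) and without all libraries numbered 12 (0.0311).

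TNFRSF10B (ENSG00000120889; chromosome 8, 23020133 to 23069031, minus strand), the TRAIL receptor DR5, was also lower in the knockout line at both treatments. It measured 79.2, 85.2 and 98.9 CPM in HT1376 CT, and 119, 135 and 132 CPM with IFNγ. The knockout libraries measured 20.5, 23.0 and 19.8 CPM untreated and 22.7, 24.1 and 24.3 CPM with IFNγ. No control library came near a knockout library, with a 4.12-fold lower level in the knockout line untreated (log2 -2.04 ± 0.13 SE, adjusted p = 1.03e-06) and a 5.28-fold lower level under IFNγ (log2 -2.40 ± 0.13 SE, adjusted p = 2.57e-07). The IFNγ increase of 1.49-fold in HT1376 CT passed the threshold (adjusted p = 0.0149), whereas in the knockout line the change was 1.14-fold (log2 0.19, 95% interval -0.11 to 0.48, adjusted p = 0.999). Leaving out 1 library ended the control call in 3 of 6 cases, namely HT1376 CT replicate 11 (adjusted p = 0.0818), HT1376 CT replicate 12 (0.0511) and HT1376 CT with IFNγ replicate 13 (0.0700).

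**Figure D1:**
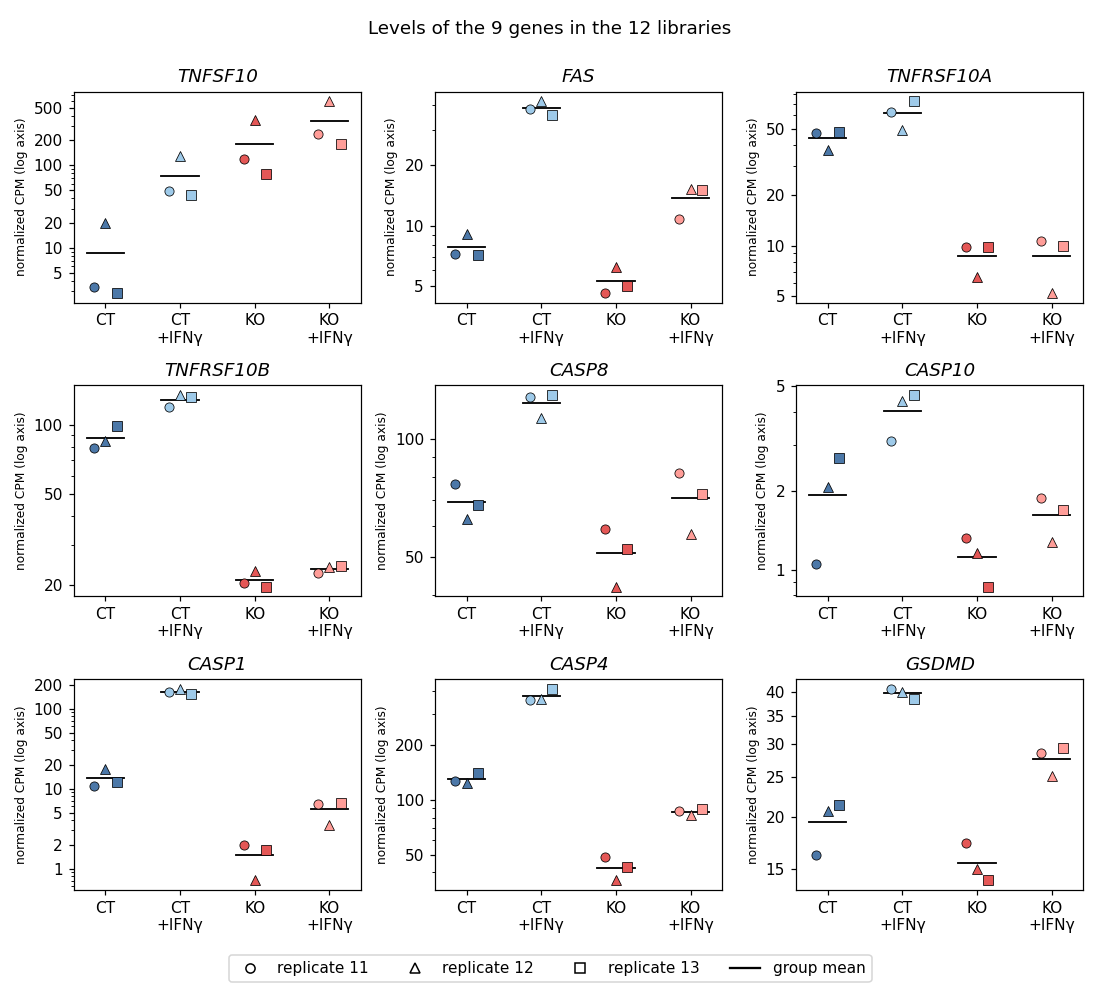
Normalized CPM (log axis, a separate scale for each gene) of the 9 genes in the 12 libraries, with CT for HT1376 CT and KO for HT1376 FOXP3 KO, 1 symbol per library by replicate number and a line at the group mean. TNFSF10 is the gene with higher points in KO, and TNFRSF10A, TNFRSF10B, CASP1 and CASP4 have every KO point below every CT point, treated or not.

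CASP8 (ENSG00000064012; chromosome 2, 201233443 to 201361836, plus strand), the initiator caspase of the death receptors, rose with IFNγ in HT1376 CT from 76.8, 62.4 and 68.1 CPM to 128, 114 and 129.9 CPM. The knockout libraries went from 58.8, 41.9 and 52.3 CPM to 82.0, 57.2 and 72.5 CPM. Replicate 12 was lowest in all 4 groups, and the treated and untreated groups overlapped in the knockout line only. The control increase was 1.82-fold (log2 0.87 ± 0.12 SE, adjusted p = 0.000801), and the knockout change was 1.40-fold (log2 0.49, 95% interval 0.13 to 0.85, adjusted p = 0.536). With the replicate block the knockout change passed the threshold (adjusted p = 0.000305), the 3 ratios by number being 1.39, 1.36 and 1.39. The knockout line was lower by 1.70-fold under IFNγ (log2 -0.77 ± 0.15 SE, adjusted p = 0.00226). Untreated it was lower by 1.34-fold (adjusted p = 0.0444), and this call was lost on leaving out any 1 of 5 of the 6 libraries (adjusted p from 0.0590 to 0.192), all but HT1376 FOXP3 KO replicate 11.

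CASP10 (ENSG00000003400; chromosome 2, 201182872 to 201229428, plus strand), the other initiator caspase, was the least expressed of the 9, with 12 to 101 counts per library. Its levels were 1.05, 2.07 and 2.67 CPM in HT1376 CT and 3.10, 4.39 and 4.64 CPM with IFNγ. In the knockout line they were 1.33, 1.16 and 0.864 CPM, and 1.87, 1.28 and 1.70 CPM with IFNγ. The control groups were apart, while the untreated and treated knockout libraries overlapped. The 2.08-fold change with IFNγ in HT1376 CT missed the threshold (log2 1.06, 95% interval 0.21 to 1.91, adjusted p = 0.169) and passed it with the replicate block (adjusted p = 0.0195). Under IFNγ the knockout line was 2.39-fold lower (log2 -1.26 ± 0.36 SE, adjusted p = 0.0216). That call was lost when replicate 13 of the treated control (adjusted p = 0.104) or of the treated knockout (0.0630) was left out, or all libraries numbered 12 (0.0537).

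CASP1 (ENSG00000137752; chromosome 11, 105025397 to 105035250, minus strand), the inflammasome caspase, was raised by IFNγ in HT1376 CT and much lower in the knockout line at both treatments. Its fitted IFNγ increase in HT1376 CT exceeded that of TNFSF10, the next of the 9, but without the libraries numbered 12 the order was reversed, at log2 3.78 for CASP1 and 3.92 for TNFSF10. In HT1376 CT it rose from 10.7, 17.6 and 12.3 CPM to 159.9, 178 and 152 CPM, which was 12.4-fold (log2 3.63 ± 0.18 SE, adjusted p = 1.97e-07). In HT1376 FOXP3 KO the values were 1.97, 0.713 and 1.73 CPM untreated, from 46, 8 and 30 counts, and 6.42, 3.52 and 6.59 CPM with IFNγ. Every treated knockout library was above every untreated one, yet below every untreated control library. The knockout line was 8.61-fold lower untreated (log2 -3.11 ± 0.34 SE, adjusted p = 4.49e-05) and 28.0-fold lower under IFNγ (log2 -4.81 ± 0.21 SE, adjusted p = 8.67e-08). The 3.70-fold knockout response missed the threshold (log2 1.89, 95% interval 1.02 to 2.76, adjusted p = 0.0731). It passed with the replicate block (adjusted p = 5.91e-05), without the libraries numbered 12 (0.00905), without HT1376 FOXP3 KO with IFNγ replicate 12 (0.0392), with DESeq2 (0.000463), without the low-count filter (0.000832), with the bias-adjusted deviance and no block (0.0450) and in the fit of all 12 libraries (0.00222).

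CASP4 (ENSG00000196954; chromosome 11, 104942866 to 104969366, minus strand), the caspase that senses lipopolysaccharide, lies close to CASP1 and moved in the same directions. HT1376 CT held 128, 125 and 141 CPM untreated and 355, 359 and 412 CPM with IFNγ, an increase of 2.91-fold (log2 1.54 ± 0.11 SE, adjusted p = 2.78e-06). HT1376 FOXP3 KO held 48.2, 36.0 and 42.6 CPM untreated and 87.2, 82.2 and 89.3 CPM with IFNγ, an increase of 2.06-fold (log2 1.04 ± 0.12 SE, adjusted p = 0.00203). The 4 groups did not overlap, and the treated knockout level stayed under the untreated control level. The knockout line was 3.06-fold lower untreated (adjusted p = 4.65e-06) and 4.22-fold lower under IFNγ (adjusted p = 3.50e-07). Of the IFNγ calls in the knockout line, the CASP4 call was the 1 that held on leaving out each library in turn.

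GSDMD (ENSG00000104518; chromosome 8, 143553207 to 143563062, plus strand), the pore-forming substrate of CASP1 and CASP4, differed least between the lines. It rose with IFNγ from 16.2, 20.7 and 21.4 CPM to 40.8, 39.9 and 38.4 CPM in HT1376 CT, which was 2.08-fold (log2 1.05 ± 0.15 SE, adjusted p = 0.00109). GSDMD in the knockout line rose from 17.3, 14.98 and 14.1 CPM to 28.5, 25.1 and 29.4 CPM, which was 1.81-fold (log2 0.85 ± 0.14 SE, adjusted p = 0.0198). The untreated lines overlapped, and the difference was small (log2 -0.31, 95% interval -0.67 to 0.05, adjusted p = 0.180). Under IFNγ all 3 knockout libraries were below the 3 control libraries, 1.39-fold in all (adjusted p = 0.0233). Both of the smaller calls lay near the threshold. The knockout response was lost on leaving out any 1 of 5 of the 6 libraries (log2 0.77 to 0.94, adjusted p from 0.0544 to 0.134), all but HT1376 FOXP3 KO with IFNγ replicate 12. The difference under IFNγ was lost likewise (log2 -0.51 to -0.43, adjusted p from 0.0508 to 0.0669), kept only without HT1376 CT with IFNγ replicate 12.

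In HT1376 CT, IFNγ thus raised FAS, TNFSF10, TNFRSF10B, CASP1, CASP4, CASP8 and GSDMD, 7 of the 9, by 1.49-fold to 12.4-fold. Across all 24416 genes tested, 3.53% were called higher, and 4.96% of those with a mean of at least 1 CPM. The treated and untreated libraries of all 9 genes were apart, against 23.9% of all genes tested. The median log2 fold change was 1.06 over the 9 genes and -0.02 over all genes tested. With the replicate block 9 of 9 were called, the 2 additions being TNFRSF10A and CASP10. That fit called 2080 of the 24416 genes higher and 2019 lower. Leaving out 1 library left 5 to 7 calls, with TNFSF10 lost without HT1376 CT replicate 11 (adjusted p = 0.0710), HT1376 CT replicate 13 (0.0717) or the treated HT1376 CT replicate 12 (0.0537), and TNFRSF10B lost without the libraries given above. Without all libraries numbered 12, 7 were called, with TNFRSF10A in and TNFRSF10B out (adjusted p = 0.0539), beside 784 of 23608 genes called higher.

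In HT1376 FOXP3 KO, IFNγ raised FAS, CASP4 and GSDMD, 3 of the 9, by 1.81-fold to 2.64-fold. Of 24131 genes tested, 0.978% were called higher, and 1.47% of those with a mean of at least 1 CPM. The groups of 4 genes, those 3 and CASP1, did not overlap, against 10.7% of all genes tested. The median log2 fold change over the 9 genes was 0.85, beside -0.01 over all genes tested. The replicate block added TNFSF10, CASP1 and CASP8, giving 6 calls, and leaving out the libraries numbered 12 added TNFSF10 and CASP1, giving 5. The blocked fit called 793 of 24131 genes higher, and the fit without the libraries numbered 12 called 298 of 23257. Leaving out 1 library left 1 to 4 calls, with FAS lost without HT1376 FOXP3 KO replicate 11 (adjusted p = 0.107), HT1376 FOXP3 KO replicate 13 (0.0935) or HT1376 FOXP3 KO with IFNγ replicate 13 (0.0911).

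Between the untreated lines, TNFSF10 was higher and TNFRSF10A, TNFRSF10B, CASP1, CASP4 and CASP8 were lower in HT1376 FOXP3 KO. These 1 and 5 calls stand beside 14.0% of 25320 genes called higher and 18.2% called lower. The lines were apart for 7 of the 9 genes, which adds FAS to the 6 called, against 46.4% of all genes tested. Under IFNγ all 9 genes differed, TNFSF10 upward and the other 8 downward, beside 13.2% of 24388 genes called higher and 15.7% called lower. All 9 were apart, against 43.4% of all genes. Over genes with a mean of at least 1 CPM, 18.3% were higher and 24.3% lower untreated, and 17.8% and 20.2% under IFNγ. The median log2 fold change of the 9 was -0.78 untreated and -1.45 under IFNγ, beside -0.02 and 0.02 over all genes tested. With so many genes differing between the 2 clones, the share of non-overlapping genes is high throughout the table. The IFNγ effects and the differences between lines share libraries, so their values are given side by side and no overlap between them was tested.

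**Figure D2:**
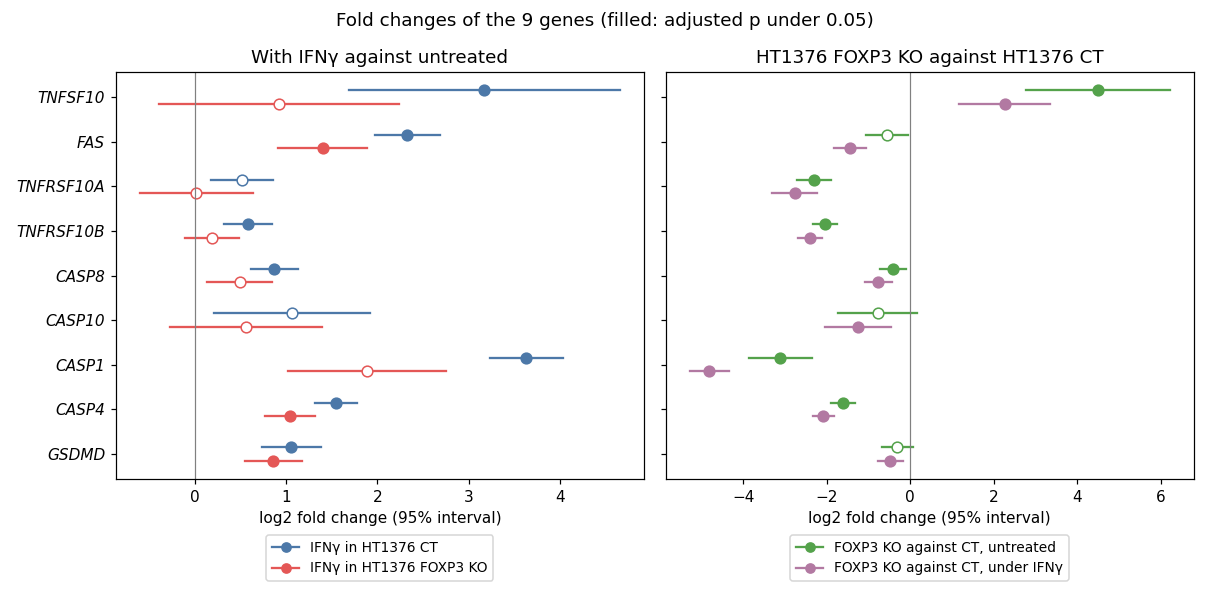
Log2 fold changes of the 9 genes with 95% intervals (x axis, bars), for IFNγ against untreated in each line on the left and for HT1376 FOXP3 KO against HT1376 CT at each treatment on the right, with filled points where the adjusted p is under 0.05. CASP1 lies at log2 3.63 for IFNγ in HT1376 CT and at log2 -4.81 between the lines under IFNγ, and TNFSF10 lies to the right of 0 between the lines.

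A fit of the 12 libraries with a term for line by IFNγ compared the size of the response in one line with that in the other. All 9 interaction values were negative, meaning a smaller fold response in the knockout line, where 47.3% of all 27806 genes tested were negative. They ran from -2.24 for TNFSF10 to -0.20 for GSDMD, with CASP1 at -1.76 ± 0.38 SE (adjusted p = 0.163) and FAS at -0.92 ± 0.26 SE (adjusted p = 0.411). These values compare folds, not gains in CPM. Of the 9, only TNFSF10 gained more mean CPM in the knockout line. It went from 182 to 339 CPM there and from 8.78 to 74.3 CPM in HT1376 CT. By edgeR's quasi-likelihood test 0 of the 9 passed the threshold, as 0.111% of all genes did, or 31 genes. At an unadjusted p under 0.05 there were 5 of the 9, namely FAS, TNFSF10, TNFRSF10B, CASP1 and CASP4, against 6.21% of all genes. DESeq2 called 1, CASP1 (adjusted p = 0.00169), beside 160 of all 27806 genes.

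The ratios between libraries of the same number showed the spread behind these values. CASP1 rose 15.01-, 10.1- and 12.4-fold at numbers 11, 12 and 13 in HT1376 CT, and 3.26-, 4.94- and 3.81-fold in the knockout line. The FAS ratios were 5.29, 4.57 and 4.998 in HT1376 CT and 2.34, 2.44 and 3.03 in the knockout line. The CASP4 ratios were 2.79, 2.87 and 2.92 against 1.81, 2.28 and 2.10. For 7 of the 9 genes every control ratio exceeded every knockout ratio, which held for 9.89% of the 16964 genes with a count in every library. CASP1, CASP4, TNFRSF10A and TNFRSF10B are on the study's own list of IFNγ-induced and FOXP3-dependent genes, drawn from these libraries. For them, contrasts with the share of all genes are not independent of that choice. CASP10 and GSDMD were the exceptions, with knockout ratios reaching 1.96 and 2.09 and control ratios starting at 1.74 and 1.80. With the replicate number as a block within each line, 5 of the 9 interactions passed the threshold, namely FAS (adjusted p = 0.00889), TNFSF10 (4.59e-08), CASP1 (0.00162), CASP4 (0.00337) and CASP8 (0.0400). In that fit 867 of all 27806 genes passed. This fit was added after the data were seen. Without the libraries numbered 12, TNFSF10 (adjusted p = 0.000733) and CASP1 (0.00237) passed, beside 49 of all 26897 genes tested. CASP1 also passed on leaving out HT1376 FOXP3 KO replicate 12 (0.0430), beside 22 of 27597 genes.

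**Figure D3:**
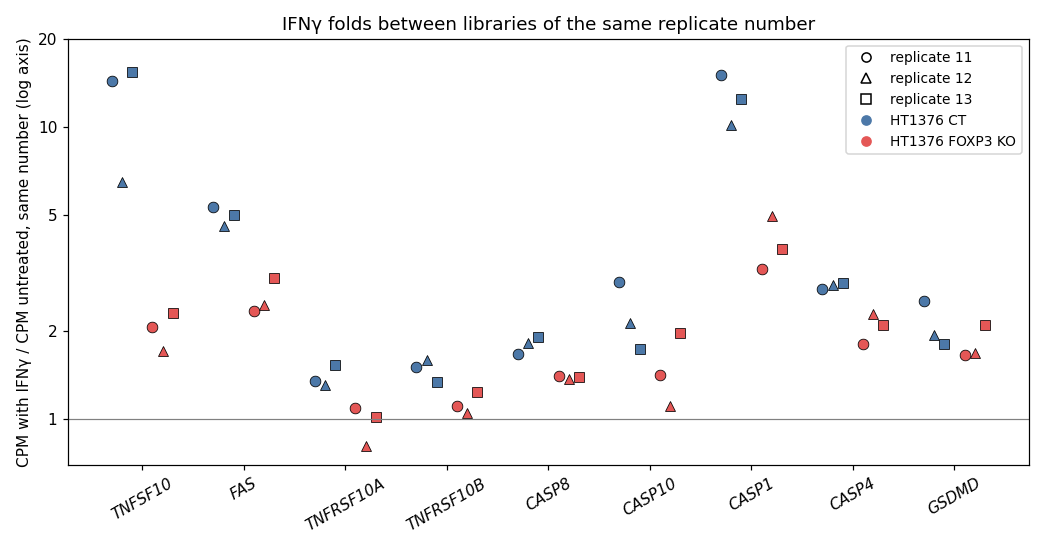
Ratio of CPM with IFNγ to CPM untreated between libraries of the same replicate number (y axis, log scale) for the 9 genes, in HT1376 CT (blue) and HT1376 FOXP3 KO (red), with 1 symbol per number. The blue and red points are apart for 7 genes and overlap for CASP10 and GSDMD.

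Levels of different genes can be compared only per length. Per kb of merged exon in GENCODE 44, CASP4 was the most abundant of the 9 in HT1376 CT at 19.7 CPM per kb (18.7 to 21.2 across libraries). TNFRSF10B at 17.5 and TNFRSF10A at 15.05 CPM per kb followed, and each overlapped its neighbour in this order. With IFNγ, CASP4 stayed first in HT1376 CT at 56.3 CPM per kb, and CASP1 moved from sixth place at 3.40 to second at 41.2 CPM per kb. The order in HT1376 FOXP3 KO was led by TNFSF10 at 52.8 CPM per kb, or 98.6 with IFNγ, and no other gene overlapped it. CASP8 at 7.05 and CASP4 at 6.35 CPM per kb came next in the untreated knockout line and overlapped each other. CASP10 was last in all 4 groups. The length used matters most for FAS, whose merged exons span 29313 bases and whose canonical transcript has 3696. By canonical transcript lengths, FAS was at 10.5 CPM per kb in HT1376 CT with IFNγ in place of 1.32 by merged exons, and CASP4 led both HT1376 CT groups, TNFSF10 led both knockout groups and CASP10 was last, as by merged exons. CASP4 was then second in the untreated knockout line, ahead of CASP8. In untreated HT1376 CT, CASP4 at 101 CPM per kb then overlapped no other gene. CASP8 came second there at 26.0 and overlapped TNFRSF10B at 22.0, with TNFRSF10A next at 16.4 CPM per kb.

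Across the 12 libraries, CASP1 and CASP4 had the most similar profiles among the 9 (Pearson's r of log2 CPM 0.990), followed by TNFRSF10A and TNFRSF10B (0.962) and by FAS and GSDMD (0.948). TNFSF10 ran against TNFRSF10A (-0.720). Among the other 15668 genes ranked, the profile nearest to CASP4 was that of TRIM25 (0.992), with PSMA4 at the same rounded value, and PSMA4 was also nearest to CASP1 (0.987). FAS was nearest to CALCOCO2 and RSAD2 (both 0.987), and GSDMD to AIM2 (0.982) and BTN3A1 (0.981). TNFRSF10B was nearest to HDAC9 (0.998) and RGS20 (0.994), and TNFRSF10A to ZDHHC21 (0.996) and ADGRE5 (0.991). TNFSF10 was nearest to LGALS8 (0.971) and BCL6 (0.970), CASP8 to LINC01752 (0.966) and RNF115 (0.965), and CASP10 to TMPRSS3 (0.954) and DNAJC1 (0.948). These correlations describe 12 libraries that share 4 groups and 3 replicate numbers, so large group differences alone give high values.

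The TRAIL receptor genes sit on the short arm of chromosome 8 among neighbours that were lower in the knockout line too. Of 173 other genes with a mean of at least 1 CPM whose starts lie within 20 Mb of that of TNFRSF10B, 123 (71.1%) were lower and 6 higher untreated, with a median log2 fold change of -1.14. Under IFNγ 117 (67.6%) were lower and 8 higher, with a median of -1.07. Over all expressed genes 24.3% were lower untreated, with a median of -0.03, and 20.2% under IFNγ. The excess was present at each distance from TNFRSF10B, with 19 of 25 genes lower within 1 Mb, 18 of 34 from 1 to 5 Mb, 31 of 36 from 5 to 10 Mb and 55 of 78 from 10 to 20 Mb. The count of lower genes within 20 Mb stayed between 114 and 133 untreated, and between 100 and 131 under IFNγ, over 15 other settings each. One of these neighbours is TNFRSF10D, a decoy TRAIL receptor, which fell from 33.7 ± 10.2 CPM (SD, n = 3) to 7.51 ± 2.40 CPM between the untreated lines. TNFRSF10A and TNFRSF10B themselves, at log2 -2.31 and -2.04, lay below the median of this region. What the shift along this region comes from, and its part in the 2 receptor values, was not tested.

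Around the other genes the shares of lower genes differed with distance. Within 20 Mb, 21.0% of 276 expressed genes around FAS, 19.5% of 123 around TNFSF10, 27.1% of 177 around CASP8 and CASP10 and 24.8% of 129 around GSDMD were lower untreated, beside 24.3% over all expressed genes. Within 1 Mb, 7 of 15 genes were lower around FAS (median log2 -0.41), 10 of 23 around CASP8 and CASP10 (median -0.31), 19 of 63 around GSDMD (median -0.28) and 2 of 5 around TNFSF10. CASP1 and CASP4 had 38.8% of 206 genes lower within 20 Mb and 5 of the 8 expressed genes within 1 Mb of CASP1 (median log2 -1.004). Among those 8 is CARD16, a gene next to CASP1 with a similar CARD domain sequence, which was at 9.07 ± 0.814 CPM in HT1376 CT and 0.296 ± 0.0633 CPM in HT1376 FOXP3 KO (log2 -4.92). How reads shared by CASP1 and CARD16 were counted is not given in the sources used here, so their counts may not be fully separate. CASP5, the third inflammatory caspase of this cluster, had 8 counts in all, in the HT1376 CT libraries with IFNγ.

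**Figure D4:**
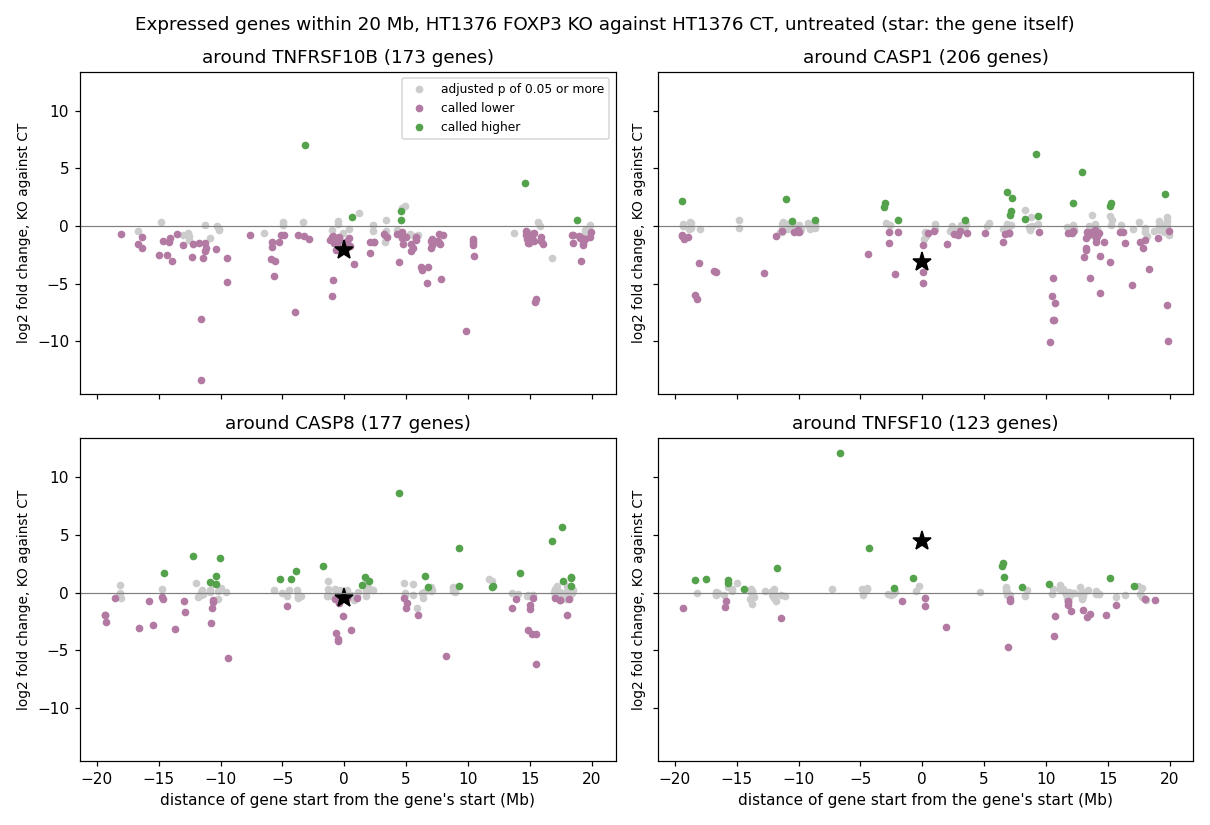
Untreated KO against CT as log2 fold change (y axis) for expressed genes by the distance of their start from the start of TNFRSF10B, CASP1, CASP8 or TNFSF10 (x axis, Mb), coloured by call, with a star for the gene itself. Around TNFRSF10B 123 of 173 genes are called lower, against 80 of 206 around CASP1, 48 of 177 around CASP8 and 24 of 123 around TNFSF10.

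The other genes of the death receptor pathway were read from a list of 24, of which 23 were tested. The counts of this list and the next 4 stand beside the shares of all genes tested given above. Those were 3.53% higher with IFNγ in HT1376 CT and 0.978% in HT1376 FOXP3 KO. The shares over genes with a mean of at least 1 CPM, also given above, were larger. IFNγ raised 5 of them in HT1376 CT, among them the TNF receptor TNFRSF1B (log2 1.69), the deubiquitinase CYLD (1.49) and CFLAR, which encodes the CASP8 inhibitor c-FLIP (0.72). It raised 1 in the knockout line, BIRC3, an inhibitor of apoptosis protein (log2 0.86). The list's median log2 fold change was 0.26 in HT1376 CT and 0.17 in the knockout line. Between the untreated lines 12 of the 23 were lower and 2 higher in HT1376 FOXP3 KO, and under IFNγ 13 were lower and 1 higher, with medians of -0.59 and -0.51. Over all genes tested 18.2% were lower and 14.0% higher untreated, and 15.7% and 13.2% under IFNγ. The death receptor TNFRSF25 (DR3) fell from 19.4 ± 5.69 CPM to 0.419 ± 0.386 CPM (log2 -5.48) and BID, which links CASP8 to mitochondria, from 9.57 ± 0.860 CPM to 0.756 ± 0.307 CPM (log2 -3.68). TNFRSF1B was lower as well (log2 -2.25), as was the adaptor FADD (log2 -0.59), while TNFRSF1A (log2 0.57) and DIABLO (log2 0.93) were higher. DIABLO has 2 overlapping entries of that name among the counted genes, and the value is that of ENSG00000184047 only. Under IFNγ the higher gene was CASP9 (log2 0.95).

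In the BCL2 family, which governs the mitochondrial step, IFNγ raised 4 of 15 genes in HT1376 CT, including PMAIP1 (log2 1.35), BAK1 (0.91) and the pro-survival MCL1 (0.67), and lowered HRK (-1.52) and BAD (-0.97). In the knockout line 0 of 14 were called by edgeR, with 2 at an unadjusted p under 0.05 and 2 by DESeq2. Between the lines 7 were lower and 2 higher at each treatment, of 14 tested untreated and 15 under IFNγ. Over all genes 18.2% and 15.7% were lower and 14.0% and 13.2% higher. BOK, a relative of BAX and BAK1, fell from 18.0 ± 0.936 CPM to 0.402 ± 0.359 CPM untreated (log2 -5.29), whereas the BH3-only gene HRK rose from 5.87 ± 2.13 CPM to 38.0 ± 13.6 CPM (log2 2.72) and BMF by 1.59 on the log2 scale. PMAIP1 was lower at both treatments (log2 -1.17 and -1.44).

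Of 22 tested genes of inflammasomes and pyroptosis besides CASP1, CASP4 and GSDMD, IFNγ raised 6 in HT1376 CT, with a list median of 0.73. The DNA sensor AIM2 went from 4.93 ± 0.696 CPM to 301 ± 41.5 CPM (log2 5.94), and the gasdermins GSDMB (2.36) and GSDMC (2.12) and the sensor NLRP3 (1.27) were also raised. The knockout line had 2 raised, AIM2 from 1.75 ± 0.410 CPM to 39.8 ± 4.68 CPM (log2 4.51) and GSDMB (1.13). Between the untreated lines 8 were lower and 4 higher in the knockout line, and under IFNγ 13 of 21 were lower and 3 higher, beside 18.2% and 15.7% lower and 14.0% and 13.2% higher over all genes. The sensor NLRP1 fell from 79.4 ± 8.67 CPM to 3.22 ± 1.23 CPM (log2 -4.55), and NLRP3 by 2.68 on the log2 scale. PYCARD, the adaptor ASC, was low in every library, at 4.09 ± 1.07 CPM in HT1376 CT with IFNγ and 0.304 ± 0.0964 CPM in the treated knockout line (log2 -3.65). In the opposite direction GSDME, another gasdermin gene, rose from 0.357 ± 0.207 CPM to 43.6 ± 6.98 CPM (log2 6.85), and the cytokine gene IL18 by 0.94 on the log2 scale.

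The list for necroptosis, a caspase-independent form of cell death, had 6 tested genes in HT1376 CT. Of these, IFNγ raised ZBP1, TLR3 (log2 2.59) and MLKL (log2 1.93). ZBP1 had at most 5 counts in any untreated library and 10.5 ± 4.17 CPM in HT1376 CT with IFNγ. In HT1376 FOXP3 KO 2 of the 6 were raised, MLKL from 0.867 ± 0.0988 CPM to 5.84 ± 1.26 CPM (log2 2.77) and ZBP1, which was at 0 untreated and 1.61 ± 0.583 CPM with IFNγ. MLKL, the necroptosis executor, was 17.2-fold lower in the untreated knockout line (log2 -4.10) and 9.497-fold lower under IFNγ (log2 -3.25). Untreated, 2 of 5 genes were higher and 2 lower, and under IFNγ 3 of 6 were lower, beside 14.0% higher and 18.2% lower untreated and 15.7% lower under IFNγ over all genes.

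Of 16 genes of IFNγ signalling itself, IFNγ raised 11 in HT1376 CT (median log2 1.54) and 6 in HT1376 FOXP3 KO (median 0.71). Between the lines 8 of 15 were lower and 2 higher untreated, and 8 of 16 lower and 2 higher under IFNγ, beside 18.2% and 15.7% lower and 14.0% and 13.2% higher over all genes. The receptor subunit IFNGR2 was lower untreated (log2 -1.22), as were SOCS1 (-1.12) and USP18 (-2.07). Under IFNγ, JAK2 was lower (log2 -1.70) and JAK1 higher (0.56), as it was untreated (0.54).

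**Figure D5:**
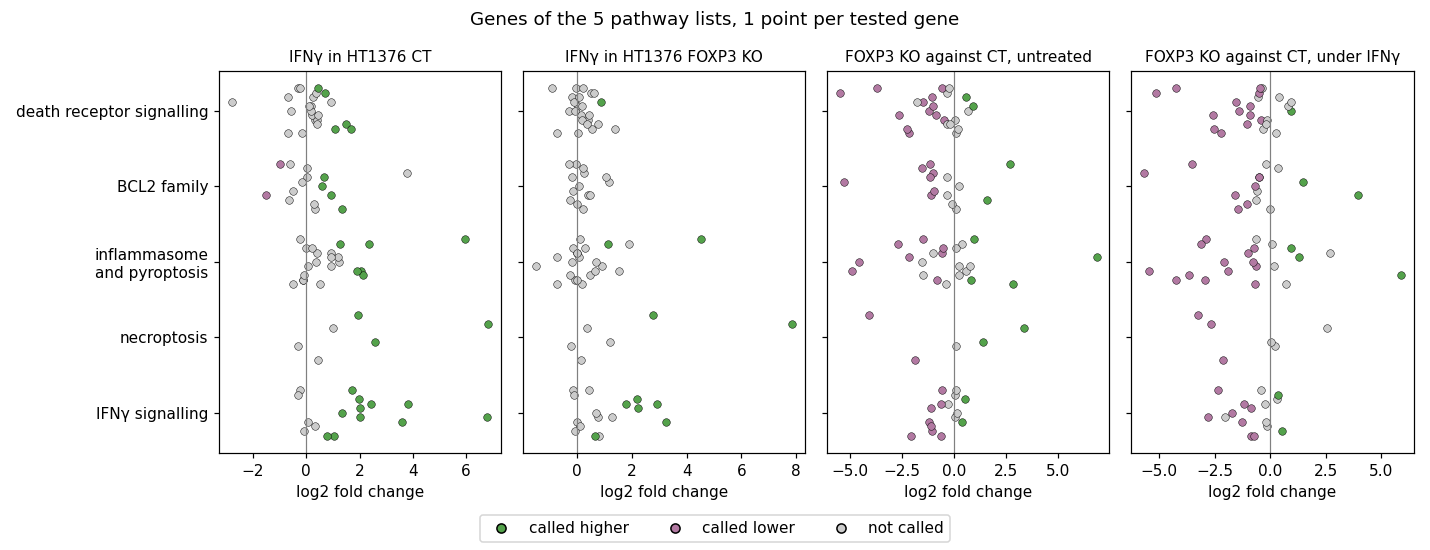
Log2 fold changes (x axis, a separate scale per panel) of the tested genes of the 5 pathway lists, in the 4 comparisons, with 1 point per gene coloured by call. IFNγ signalling has 11 of 16 genes called higher with IFNγ in HT1376 CT and 6 of 16 in HT1376 FOXP3 KO, and the death receptor list has 12 of 23 called lower between the untreated lines.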

How the data were processed

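RNA-seq of 12 HT1376 libraries was analysed from a table of whole-number counts per gene. The authors depleted ribosomal RNA, sequenced paired-end reads, aligned them with STAR 2.7.11a (version per the submitters' processing notes) to GRCh38 with an Ensembl annotation, removed Mycoplasma reads with Kraken and deposited htseq-count counts without normalization. The strand and multi-mapping settings are not given in the sources used here, so overlapping and antisense genes and near-identical copies are uncertain. Of the merged exon bases of each of the 9 genes, at most 9.1% are shared with any 1 other gene. TNFRSF10A shares 9.1% with TNFRSF10A-DT and 7.7% with TNFRSF10A-AS1, and the share with several genes together was not computed. Positions come from GENCODE 44 on the same build. All 12 library columns were used.

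Groups followed the sample labels. Comparisons of 2 groups were fitted in edgeR 4.0.16 (R 4.3.3) on their own 6 libraries by its quasi-likelihood test, with TMM factors. Genes whose counts summed to 10 or more entered, p-values had the Benjamini-Hochberg adjustment over all genes tested, and an adjusted p under 0.05 made a call. The interaction used all 12 libraries. Normalized CPM used TMM factors over the 12 libraries, and correlations used log2 CPM with a prior count of 2. SE belongs to log2 fold changes and SD to CPM. The code was tested on simulated data, where false calls exceeded the nominal share in the main fits, more so with DESeq2 and, in most comparisons, most with the replicate block under the default deviance. Of the blocked fits, p-values are therefore printed with the bias-adjusted deviance only. The 2 libraries of each pair within a group differed by more than sampling noise.

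All 4 groups carry the numbers 11, 12 and 13. Deviations of same-numbered libraries from their group means correlated across genes with r of 0.139 to 0.152 within HT1376 CT and 0.180 to 0.267 within HT1376 FOXP3 KO, and with 0.0407 to 0.136 between the lines. Different numbers gave -0.190 to 0.0706. Every pair exceeded 0.1 within a line. Between the lines all pairs were positive, but only those numbered 12 all exceeded 0.1 (0.105 to 0.136), so pairing was used within a line only.

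The members and gene lists were chosen with earlier results of these data known. Genes named besides the 9 are, per comparison and list, up to 3 called genes with the largest increase and 3 with the largest decrease whose groups did not overlap and both reached more than 3 counts. Named too are the 2 genes with the profile nearest to each of the 9, and FOXP3 and IRF1. Some genes that this rule names are not reported here. TNFRSF10D, CARD16 as a neighbour, CASP5, FASLG, FADD, CFLAR, NLRP3 under IFNγ in HT1376 CT, ZBP1 in HT1376 FOXP3 KO and CSF1R with other markers were named outside that rule. Alternatives were RLE factors, no filter or edgeR's filterByExpr, DESeq2 1.42.0, the bias-adjusted deviance, a replicate block, all 12 libraries in 1 fit, an absolute log2 fold change over 2, and leaving out each library. A block within each line, the block with the bias-adjusted deviance, leaving out all libraries numbered 12 and canonical transcript lengths were added after the data were seen.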

Additional observations from a re-analysis of the deposited data

Results flagged for a closer look

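Among the genes of the pathway lists, 2 had an IFNγ response that differed between the lines by the interaction test over all 12 libraries (edgeR's quasi-likelihood test, adjusted over all genes tested). AIM2, the DNA sensor, had an interaction of -1.44 on the log2 scale (adjusted p = 0.0364). Its ratios between libraries of the same number were 51.0 to 71.6 in HT1376 CT and 18.5 to 33.7 in HT1376 FOXP3 KO. IRF1 had an interaction of -0.93 (adjusted p = 0.0171), with ratios of 12.6 to 15.3 in HT1376 CT and 6.80 to 8.18 in HT1376 FOXP3 KO. Both genes still rose with IFNγ in the knockout line. What the smaller fold response comes from was not tested.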

How the results depend on the processing

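Group means of the 9 genes moved by less than 1 SD with RLE factors. Of the log2 fold changes of the 9 genes under the alternatives, 662 kept their direction and side of the threshold, 44 newly passed, 28 no longer passed and 4 changed sign. All 4 are TNFRSF10A with IFNγ in HT1376 FOXP3 KO, at -0.00386 with all 12 libraries in 1 fit and at -0.14, -0.18 and -0.08 without untreated replicate 12, treated replicate 11 or treated replicate 13. Over the 6 fits that leave out 1 library it ran from -0.18 to 0.24.

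For IFNγ in HT1376 CT, 1307 genes were called, 356 (3 of the 9) at an absolute log2 fold change over 2, 2248 without the low-count filter, and 761 to 1201 on leaving out 1 library (5 to 7 of the 9). For IFNγ in HT1376 FOXP3 KO, 237 were called, 125 over that fold (0 of the 9) and 161 to 207 on leaving out 1 library (1 to 4 of the 9). Leaving out the libraries numbered 12 gave 5 of the 9. Between the untreated lines 8135 were called, 3119 over that fold and 5834 to 7736 without 1 library (5 or 6 of the 9). Under IFNγ 7046 were called, 2948 over that fold (5 of the 9) and 5031 to 6779 without 1 library (7 to 9 of the 9). For the interaction 31 were called, 18 over that fold, 294 without the filter (2 of the 9), 160 by DESeq2 (1 of the 9), 49 without the libraries numbered 12 (2 of the 9) and 15 to 33 without 1 library (0 or 1 of the 9).

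With the replicate block, 4530 genes were called for IFNγ in HT1376 CT and 4099 with the bias-adjusted deviance as well. In HT1376 FOXP3 KO these were 1334 and 1027, with 6 of the 9 each time. For the interaction the replicate block gave 336 (3 of the 9), or 230 with the bias-adjusted deviance (2 of the 9), and a block within each line gave 1320 and 867 (5 of the 9 each time). Between the lines not every pair with the same number correlated over 0.1, though those numbered 12 did, and there the block with the bias-adjusted deviance added FAS untreated (log2 -0.55, adjusted p = 0.0330). It changed no call of the 9 other than these and those given beside the results. The causes of these moves were not tested, though the fold threshold narrows the call by definition. Counts of called genes in the 5 lists stayed within 1.5 times of those reported in 334 cases and moved further in 76. Depth limits CASP10 and CASP1 most, with as few as 12 and 8 counts in a library.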
